A study of Mus musculus with 8 samples.

Results

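Tumor clonotypes seen in a single cell were examined among the T cell receptor (TCR) chains of CD8+ T cells that had infiltrated mouse tumors. A clonotype is a pair of TCRα (TRA) and TCRβ (TRB) CDR3 amino acid sequences, and its count is the number of cells that carry the pair. The members were chosen by their measured cell count and are all clonotypes with a count of 1 in the 5 tumor tables, called singletons here, together with the cell behind each of them. They numbered 21161 of 22212 tumor clonotypes and 21161 of 33075 counted tumor cells. All 14 tables of the series held 55460 clonotypes. The count of 1 chose the members, so it is a description and not a finding.

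The members were split by the chains they carry. In 3110 singletons the TRA or the TRB CDR3 also occurred in a clonotype of 2 or more cells of the same tumor, and these are called linked singletons. The other 18051 are called unlinked singletons. The remaining 1051 tumor clonotypes held 2 or more cells each, 11914 cells in all, and are called multi-cell clonotypes. Just outside the threshold lay 453 clonotypes of exactly 2 cells.

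The study followed clonotypes from the thymus to peripheral tissue and tumor in mice with and without PD-1, the inhibitory receptor that Pdcd1 encodes, on CD8+ T cells. It used adult C57BL/6 mice with loxP-flanked Pdcd1 (Pdcd1fl/fl) and Pdcd1 cKO mice, which carry the same floxed alleles and a Cre driven by the E8I enhancer of Cd8a. Tumors grew from subcutaneously injected B16-OVA cells, a melanoma line that makes ovalbumin, or from B16-F10 cells, another B16 melanoma line. Tumor CD8+ T cells were taken with CD8 (TIL) microbeads after digestion of the tumor, and thymic and splenic ones with a CD8a+ kit. The labels assign neither genotype nor tumor model nor age to single mice, so each table is described on its own and no genotypes are compared. The 8 deposited samples are multiplexed sublibraries that each hold cells of all tables, and the mouse and the tissue come from the names of the tables. The 5 tumor tables belong to mouse-160A, then mouse-160B, then mouse-160C, then mouse-164B and last mouse-164C, in this order wherever 5 values stand side by side without names, and each of these mice has a thymus table too.

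A TRA chain is made by joining a V to a J gene segment, and a TRB chain by joining V, D and J. Trimming of the ends and addition of nucleotides at the joints make the CDR3 almost unique to each rearrangement, and the CDR3 is the loop that touches the bound peptide. Cells that descend from 1 thymocyte in which both rearrangements are complete share both of them, so the pair marks a clone. Many T cells also carry a second rearranged TRA chain, because rearrangement at the TRA locus is not strictly limited to 1 allele, while a second TRB chain is rarer. Within a tumor, large clones are the usual sign of proliferation after antigen contact, and clonotypes seen in 1 cell are the low end of the same count.

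The CDR3 nucleotide sequences of the chains that linked the most singletons to multi-cell clonotypes of their tumor are shown first, since the classes rest on them. Capitals mark the bases between the end of the aligned V and the start of the aligned J segment, which hold the added bases and, in TRB, the D segment.
mouse-160A TRA: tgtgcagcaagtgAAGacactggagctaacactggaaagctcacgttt
mouse-160A TRB: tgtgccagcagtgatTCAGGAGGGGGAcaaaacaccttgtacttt
mouse-160B TRA: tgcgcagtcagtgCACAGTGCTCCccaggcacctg
mouse-160B TRB: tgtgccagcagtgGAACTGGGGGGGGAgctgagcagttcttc
mouse-160C TRA: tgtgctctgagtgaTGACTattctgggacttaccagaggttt
mouse-160C TRB: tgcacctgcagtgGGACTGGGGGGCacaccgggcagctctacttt
mouse-164B TRA: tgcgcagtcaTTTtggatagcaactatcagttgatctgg
mouse-164B TRB: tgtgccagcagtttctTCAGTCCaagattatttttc
mouse-164C TRA: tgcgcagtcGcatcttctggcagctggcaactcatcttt
mouse-164C TRB: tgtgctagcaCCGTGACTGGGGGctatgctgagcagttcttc

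The TRA chain of mouse-164C in this list joined TRAV3-1 to TRAJ22 and was the CDR3 carried by the most linked singletons of any table. It was found in 320 singletons, each with a different TRB partner, and in a clonotype of 827 cells of the same tumor. The TRB chain of mouse-164C, of TRBV29 and TRBJ2-1, was carried by 95 singletons, while its largest clonotype held 63 cells. It was in 952 cell barcodes of that tumor, counted or not, and 406 of them held it alone. In mouse-160A the TRA chain of TRAV14-3 and TRAJ52 was in 43 singletons and in a clonotype of 206 cells. In mouse-160C the TRA chain of TRAV6-5_1 and TRAJ13 was in 33 singletons and in a clonotype of 318 cells. In mouse-164B the TRA chain of TRAV3-3_1 and TRAJ33 was in 53 singletons and in a clonotype of 647 cells.

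Not every linking chain had a large clonotype among the counted cells, which are cells with both chains. The TRB chain of mouse-164B, of TRBV14 and TRBJ1-4, was carried by 23 singletons, and its largest clonotype held 3 cells. Over all cell barcodes of that tumor, counted or not, this chain was in 247, and 183 of them held it alone. The largest clonotype thus does not give the size of a clone with this chain. The TRA chain of mouse-160B joined TRAV3-1 to TRAJ28 and was carried by 73 singletons. Its CDR3 of 35 bases is not a multiple of 3 long, it does not end in the phenylalanine or tryptophan that closes a regular CDR3, and it also occurred in 838 cells in 12 tables of other mice. The other 9 chains above occurred in 1 to 67 cells of other mice, in 1 to 12 tables. The TRA chains of mouse-164B and mouse-164C were also in 12 such tables, with 40 and 67 cells. TRAV3-1 lies on chromosome 14 from 52818122 to 52818670 and TRAJ28 on chromosome 14 from 54429118 to 54429182, both on the plus strand of GRCm39.

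Singletons made up very different shares of the 5 tumors. They were 20.5% of the 1812 counted cells in mouse-160A (371 cells; 95% interval 18.6 to 22.4) and 29.2% of 3757 in mouse-160C (1098 cells; 27.8 to 30.7). They were 49.3% of 5892 in mouse-164B (2907 cells; 48.1 to 50.6), 77.3% of 13283 in mouse-164C (10273 cells; 76.6 to 78.0) and 78.2% of 8331 in mouse-160B (6512 cells; 77.3 to 79.0). Intervals here and below are exact Clopper–Pearson intervals and cover counting error only. The tables differ in depth, and a deeper table resolves more cells of a clone. At a common depth of 1812 cells the shares would be 20.5%, 32.4%, 54.1%, 80.1% and 84.2% in mouse-160A, mouse-160C, mouse-164B, mouse-164C and mouse-160B, by the exact hypergeometric expectation. In the thymus tables of the same mice they would lie between 95.8% and 99.8%. Within a tumor, the range over the first-round wells in which cells were loaded was widest in mouse-160A, from 18.8% to 21.9%. Over the 8 sublibraries it was again widest there, from 15.5% to 24.2%, and mouse-160C followed with 25.7% to 32.1%.

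The linked share of the singletons ran the other way. Linked singletons were 47.7% of the members in mouse-160A (177 of 371), 46.2% in mouse-160C (507 of 1098), 19.7% in mouse-164B (572 of 2907), 11.9% in mouse-164C (1220 of 10273) and 9.74% in mouse-160B (634 of 6512). By link, the singletons of mouse-160A held 53 linked by TRA only, 65 by TRB only and 59 by both chains. Those of mouse-160C held 148, 181 and 178 in the same order, and those of mouse-164B 314, 166 and 92. In mouse-164C the numbers were 780, 372 and 68, and in mouse-160B they were 425, 161 and 48. The tumors with few singletons thus had a larger part of them tied to multi-cell clonotypes, often through both chains, each from a different clonotype of the tumor. When second chains of a barcode also counted as links, the linked share rose to between 17.5% and 57.4%. When 1 substitution in a CDR3 of the same length was allowed, it rose to between 22.1% and 51.8%. Looser rules can also add matches between unrelated chains, and the values with other mice given below are for exact matches only.

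**Figure D1:**
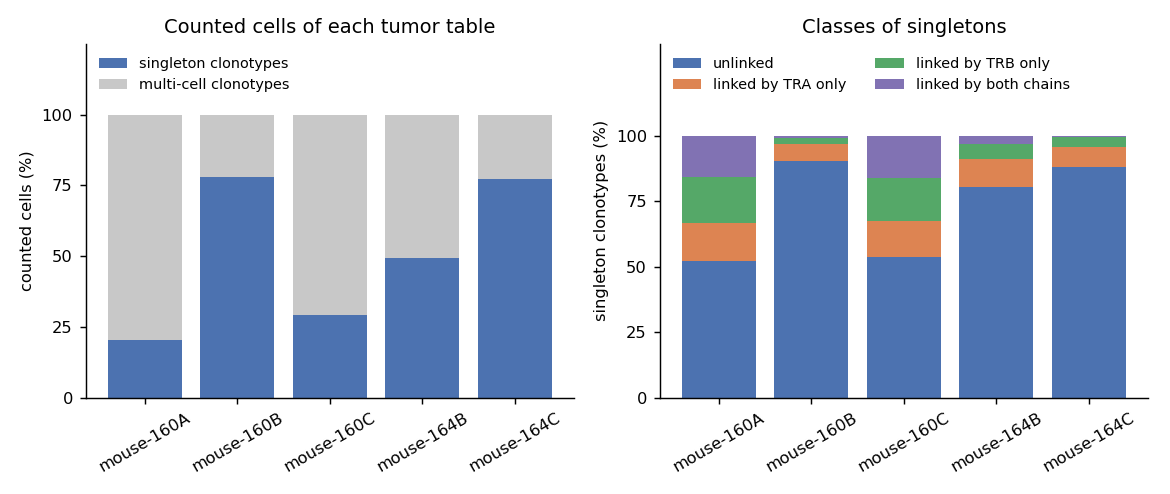
Left, the percentage of counted cells in singleton and in multi-cell clonotypes for each of the 5 tumor tables. Right, the percentage of singleton clonotypes that were unlinked or linked to a multi-cell clonotype of the same tumor by TRA only, TRB only or both chains. Linked singletons ranged from 9.74% in mouse-160B to 47.7% in mouse-160A.

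Chains of other mice show how often a CDR3 matched between mice. What gave these matches was not tested. In 20 pairings of the singletons of a tumor with the multi-cell clonotypes of another mouse's tumor, 1.65% to 11.1% of singletons carried a matching TRA or TRB (median 4.37%). With their own tumor the values were 9.74% to 47.7%, and each tumor's own value was above all 4 of its values with other mice. TRB links stood furthest apart. By TRB, 33.4% of singletons were linked in mouse-160A and 32.7% in mouse-160C, and 8.88%, 4.28% and 3.21% in mouse-164B, mouse-164C and mouse-160B. With other mice the TRB values were 0% to 2.43% (median 0.460%). By TRA, own links were 30.2%, 29.7%, 13.97%, 8.25% and 7.26% in the same order, and links with other mice 1.41% to 9.29% (median 3.98%). Counting only TRA chains that end in phenylalanine or tryptophan, links with other mice were 0.448% to 6.20% (median 1.95%). Own links counted in this way were 4.62% to 28.6%. In mouse-160B the TRA value of 7.26% stood beside 1.89% to 3.98% with other mice and was the own value nearest to them. These shares are descriptions, since the link is part of the rule.

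**Figure D2:**
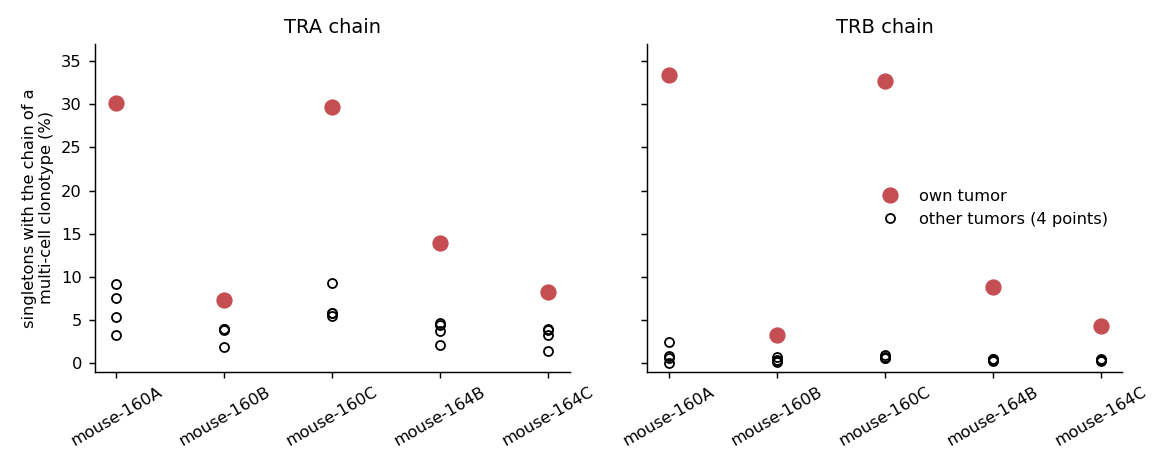
Percentage of the singletons of each tumor whose TRA (left) or TRB (right) CDR3 also occurred in a multi-cell clonotype of the own tumor (filled) or of each of 4 other tumors (open). The filled points lie above all open points of the same tumor, and the open TRB points lie between 0% and 2.43%.

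The shared chains were mostly identical in nucleotide sequence. Of the singletons linked by TRA whose sequence could be read, 1379 of 1538 (89.7%) had a TRA nucleotide CDR3 that was also found in the multi-cell clonotype. Of those linked by TRB, 1032 of 1061 (97.3%) did. The share was lowest in mouse-160B, with 83.5% for TRA and 89.5% for TRB, and reached 99.1% and 100% in mouse-160A. The annotation used here covers 29.8% of the counted cells of the tumor table of mouse-164C and all of those of the other tumors. Chains that do not end in phenylalanine or tryptophan made up 439 of 2165 TRA links (20.3%) and 0 of 1390 TRB links.

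Linked singletons often held a second chain. A second TRA or TRB chain was recorded in 61.0%, 52.5%, 61.3%, 61.0% and 57.5% of linked singletons. Among unlinked singletons the shares were 30.4%, 36.3%, 30.6%, 33.5% and 37.5%, and no tumor's linked value overlapped the range of the unlinked ones. Cells of multi-cell clonotypes lay between, at 38.6%, 41.0%, 38.9%, 53.2% and 42.6%, above the unlinked and below the linked singletons of each table. In linked and in unlinked singletons, second TRB chains were recorded more often than second TRA chains in all 5 tables. Among linked singletons 39.9% to 50.8% held a second TRB and 29.8% to 35.1% a second TRA, and among unlinked ones 18.8% to 24.5% and 13.9% to 20.9%. The difference below is that of linked and unlinked singletons, for either chain. The difference was 25.01 ± 6.57 percentage points (mean ± SD of 5 tables), above 0 in 5 of 5 tables (exact sign-flip permutation test over the 5 tables, two-sided, p = 0.0625, adjusted p = 0.163 over 13 tests). With 5 tables this test cannot give a p below 0.0625, so no comparison of this kind can pass a threshold of 0.05. Among cells linked by TRA that held a second TRB chain, 630 of 973 (64.7%) had a second TRB paired with the shared TRA in some multi-cell clonotype. Among cells linked by TRB that held a second TRA chain, 301 of 491 (61.3%) had a second TRA paired with the shared TRB in this way.

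Transcript numbers also differed by the kind of link. Mean TRB transcripts per cell of singletons linked by TRB only were 6.45, 4.57, 4.84, 3.90 and 4.01. Unlinked singletons of these tumors had 3.44, 3.10, 2.92, 3.19 and 2.59, so the groups did not overlap. The difference was 1.70 ± 0.846 transcripts, above 0 in 5 of 5 tables (exact sign-flip permutation test, p = 0.0625, adjusted p = 0.163). It was 0.833 ± 0.766 when barcodes with a second chain were left out, and 3.38 when barcodes marked as multiplets were counted. Their TRA transcripts, from the chain that was not shared, were lower than in unlinked singletons in 4 of 5 tables, by a mean of 0.210 ± 0.238 (exact p = 0.125), and this difference turned to 0.477 higher when multiplets were counted. Singletons linked by both chains had 2.51 ± 1.39 more TRB transcripts than unlinked ones, above 0 in 5 of 5 tables (exact p = 0.0625, adjusted p = 0.163). That difference fell to 0.284 without the barcodes that held a second chain. For singletons linked by TRA only, neither the TRA difference of 0.251 ± 0.448 (exact p = 0.5) nor the TRB difference of -0.0898 ± 0.194 (exact p = 0.375) was larger than its spread between tables.

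**Figure D3:**
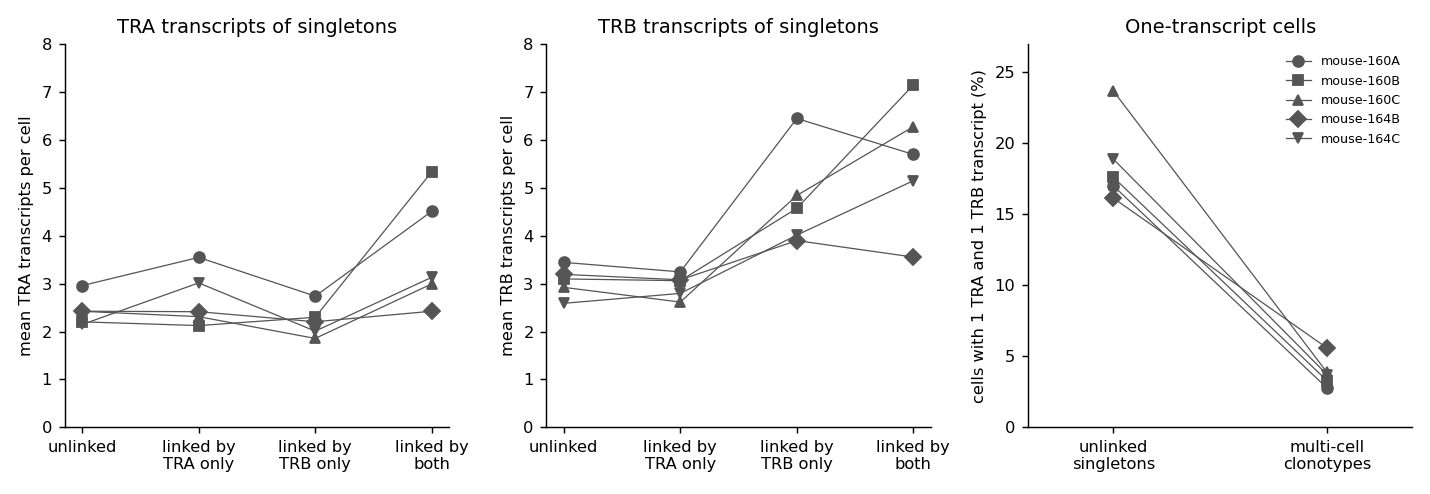
Mean TRA (left) and TRB (middle) transcripts per cell of unlinked singletons and of singletons linked by TRA only, TRB only or both chains, and the percentage of cells with 1 TRA and 1 TRB transcript among unlinked singletons and cells of multi-cell clonotypes (right). Each symbol is a tumor table, and lines join the values of a table. TRB transcripts of singletons linked by TRB only lie between 3.90 and 6.45, above the unlinked singletons of each table.

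Unlinked singletons were shallow beside multi-cell clonotypes. A single TRA and a single TRB transcript were all that supported 17.0%, 17.6%, 23.7%, 16.1% and 18.9% of unlinked singletons. Among cells of multi-cell clonotypes the shares were 2.78%, 3.30%, 3.87%, 5.59% and 3.72%, below every value of the unlinked singletons. The difference was 14.8 ± 3.31 percentage points and was above 0 in 5 of 5 tables (exact sign-flip permutation test, two-sided, p = 0.0625, adjusted p = 0.163). The median number of TRA plus TRB transcripts was 5, 4, 4, 4 and 4 in unlinked singletons and 11, 10, 9, 8 and 10 in cells of multi-cell clonotypes. This difference of -5.40 ± 0.894 transcripts was below 0 in 5 of 5 tables (exact p = 0.0625, adjusted p = 0.163). Linked singletons were supported by a single transcript of each chain in 16.9%, 22.4%, 22.3%, 19.4% and 21.7% of cells. The kinds of link differed in this share. Singletons linked by TRA only were at 32.1%, 26.4%, 35.8%, 19.7% and 21.5%, above the unlinked ones in 5 of 5 tables, and those linked by TRB only at 10.8%, 16.8%, 18.8%, 18.7% and 22.8%, above them in mouse-164B and mouse-164C and below them elsewhere. No test was run on these shares. Whether a missing or low transcript count reflects fewer transcripts in the cell or less capture cannot be told apart.

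Some unlinked singletons had many transcripts. The rule that took the deepest unlinked singleton of each table gave the following pairs in mouse-164B and mouse-160B, which are shown because they had the highest sums of TRA and TRB transcripts of the 5. In mouse-164B the cell held 59 transcripts of a TRAV7-4 and TRAJ12 chain and 3 of a TRBV12-1 and TRBJ2-1 chain. In mouse-160B it held 43 transcripts of a TRAV8-1 and TRAJ27 chain and 10 of a TRBV15 and TRBJ2-7 chain.
mouse-164B deepest TRA: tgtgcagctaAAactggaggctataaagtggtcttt
mouse-164B deepest TRB: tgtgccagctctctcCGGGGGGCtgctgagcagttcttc
mouse-160B deepest TRA: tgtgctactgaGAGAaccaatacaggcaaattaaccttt
mouse-160B deepest TRB: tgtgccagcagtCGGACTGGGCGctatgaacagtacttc
In mouse-160A, mouse-160C and mouse-164C the deepest unlinked singletons held 5, 16 and 18 TRA transcripts and 39, 22 and 25 TRB transcripts.

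A singleton pair can still have further barcodes outside the counted cells, in barcodes with 1 chain or in marked multiplets. The TRB CDR3 of 26.3% of unlinked singletons in mouse-160A (51 of 194; 20.2 to 33.1) and of 21.6%, 19.5%, 17.7% and 21.3% in the following 4 tumors was also carried by such a barcode of the same table. In the uncounted barcodes of other tumors, 2.66% to 20.1% of them were found, and the own value was the highest for each tumor. The highest value with another tumor was 20.1%, 17.4%, 17.6%, 16.3% and 13.4%. In mouse-160C and mouse-164B it lay inside the 95% interval of the own value (16.3 to 22.9 and 16.2 to 19.3). For multi-cell clonotypes the own values were 77.6% to 89.8%, beside 13.98% to 64.4% in other tumors. The whole pair of an unlinked singleton was seen in a marked multiplet of the same table in 0.398% to 2.06% of cases. Among themselves, unlinked singletons of a tumor shared a TRA CDR3 with another unlinked singleton in 3.09% (mouse-160A) to 32.7% (mouse-164C) of cases, and a TRB CDR3 in 4.97% to 10.7%. The TRA share was higher the more unlinked singletons a table held, from 194 to 9053, and the TRB share was not ordered in this way.

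The lengths of the CDR3 loops of unlinked singletons and multi-cell clonotypes differed by less than the spread between tables. Mean TRA length was 13.6 residues in unlinked singletons and 13.7 in multi-cell clonotypes, each clonotype counted once, a difference of -0.0397 ± 0.0783 (exact sign-flip permutation test, p = 0.313). Mean TRB length was 13.9 and 13.8 residues, a difference of 0.0919 ± 0.309 (exact p = 0.563) that was positive in 2 of 5 tables. Mean added TRA nucleotides, those assigned to neither V nor J, were 2.91, 2.80, 3.38, 2.99 and 2.88 in unlinked singletons. In multi-cell clonotypes they were 3.77, 3.30, 3.801, 2.87 and 3.13, a difference of -0.383 ± 0.360 that was below 0 in 4 of 5 tables (exact p = 0.125, adjusted p = 0.203). For TRB the difference was -0.113 ± 0.365 nucleotides (exact p = 0.5). Beside the thymus, unlinked singletons of the tumors had fewer added TRA nucleotides in each mouse. The thymus values of the same mice were 3.65 to 4.31 for unlinked singletons and the tumor values 2.80 to 3.38, so the ranges did not overlap. The shares of unlinked singletons with no added TRA nucleotide did overlap, at 16.5% to 17.8% in these thymi and 17.0% to 20.1% in the tumors. The TRAV3-1 and TRAJ28 chain of mouse-160B shown above, which also occurred in other mice, has 11 bases between V and J. How far this chain sets the means was not tested. Unlinked singletons of the 2 spleen tables had 3.03 and 3.06 added TRA nucleotides, inside the tumor range, beside 4.45 and 4.35 in the thymi of the same mice, so lower values than in the thymus were not particular to tumors. TRB values were 4.14 to 4.25 in the thymus and 3.99 to 4.47 in the tumors. Tissue comes only from the table names and each mouse gives 1 table of each, so this is given with no test.

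The V and J genes of unlinked singletons were compared with those of multi-cell clonotypes by counts of clonotypes per gene, with the table as a block. No gene was called in either direction by edgeR's quasi-likelihood test (0 of 143 genes, 0%), and 13 genes had an unadjusted p under 0.05, 8 of them higher in unlinked singletons. DESeq2 also called 0 genes, with 14 at an unadjusted p under 0.05. The rule removes the chains of multi-cell clonotypes from the unlinked class and so can itself lower a gene there. With the linked singletons included the count of calls was 0 as well. Counts of 0 in both settings cannot show how much the rule lowered a gene.

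TRBV16 was among the most used V genes of unlinked singletons and was the TRBV gene with the lowest p. It was used by 8.25%, 7.93%, 8.29%, 7.58% and 8.88% of unlinked singletons, and by 6.73%, 2.48%, 5.11%, 3.502% and 7.81% of multi-cell clonotypes. Unlinked singletons were higher in 5 of 5 tables, with a log2 difference of 0.80 ± 0.25 (SE; edgeR adjusted p = 0.234). Among cells with at least 2 transcripts in both chains the difference was 1.03 and passed the threshold (edgeR adjusted p = 0.0109). TRBV16 lies on chromosome 6 from 41128674 to 41129164 on the plus strand of GRCm39. TRAV3-1 was lower in 5 of 5 tables, with 4.40% to 7.22% of unlinked singletons and 7.14% to 11.5% of multi-cell clonotypes (log2 difference -0.68 ± 0.26, edgeR adjusted p = 0.234). Among the linked singletons that the rule leaves out, 320 in mouse-164C and 73 in mouse-160B carried the TRAV3-1 chains shown above. How far this lowers the TRAV3-1 share was not tested. The lowest adjusted p over all genes, chosen after the values were seen, was that of TRAV6D-7, a rare gene with 53 clonotypes in all. It was used by 0.169% to 0.515% of unlinked singletons and 0.311% to 1.92% of multi-cell clonotypes (log2 difference -2.11 ± 0.61, edgeR adjusted p = 0.0951), and it passed the threshold when the table of mouse-160B was left out (-2.54, edgeR adjusted p = 0.0365).

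The other leading genes had no call either. TRBV13-2 was the most used TRBV gene of unlinked singletons with a median share of 10.9%, followed by TRBV12-1 with 9.31%. Their log2 differences to multi-cell clonotypes were 0.16 ± 0.12 and 0.09 ± 0.16 (SE), with 95% intervals of -0.10 to 0.41 and -0.25 to 0.44. TRBJ2-7, with 20.6%, led TRBJ2-1 and TRBJ2-5 with 12.7% and 12.3%. TRAV12-1_1, with 9.17%, led TRAV3-1 with 5.82% and TRAV6-6 with 5.15%. TRAJ22, TRAJ30 and TRAJ23 had 7.25%, 5.19% and 4.90%. TRBJ2-7 spanned 20.1% to 21.1% over unlinked singletons and 16.5% to 24.5% over multi-cell clonotypes, which are fewer per table.

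**Figure D4:**
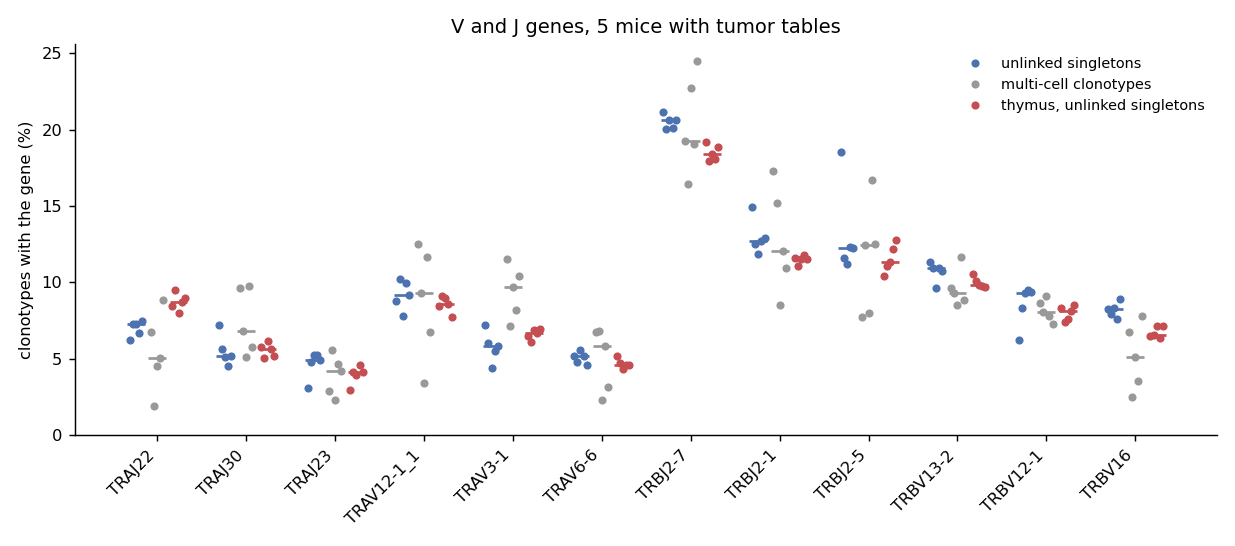
Percentage of clonotypes that use each of the 12 V and J genes with the highest median share among unlinked singletons. Points are the 5 mice with tumor tables and bars their medians, for unlinked tumor singletons, multi-cell tumor clonotypes and unlinked singletons of the thymus. TRBV16 lies between 7.58% and 8.88% in unlinked tumor singletons and between 6.37% and 7.16% in the thymus.

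Beside the thymus of the same mouse, with no test, unlinked tumor singletons used TRBV16 more in 5 of 5 mice (median 8.25% and 6.55%), as well as TRBJ2-7 (20.6% and 18.4%), TRBJ2-1 (12.7% and 11.5%) and TRAJ23 (4.90% and 4.10%). TRAJ22 was lower in 5 of 5 mice (7.25% and 8.69%). Several of these differences from the thymus were also present in the spleen. In mouse-155A and mouse-155C, unlinked singletons of the spleen used TRBV16 at 8.83% and 7.63%, beside 7.58% and 6.10% in the thymus. TRBJ2-7 stood at 19.4% and 19.3% in the spleen, beside 19.1% and 17.7%, and TRAJ22 at 7.40% and 7.09%, beside 9.46% and 8.73%. TRAJ23 was lower in the spleen than in the thymus of both mice, and TRBJ2-1 was higher in mouse-155A and lower in mouse-155C. TRAJ28 was also lower in 5 of 5 mice, at 0.817% to 3.05% in the tumors and 0.902% to 6.33% in the thymus, and the thymus value of 0.902% belonged to mouse-160B. In the spleen it was 3.00% and 2.73%, beside 4.60% and 5.07% in the thymus. These shares include or leave out the irregular TRAV3-1 and TRAJ28 chain shown above, depending on the table. That chain was in 73 linked singletons of the mouse-160B tumor and in 838 cells in 12 tables of other mice. The rule removes it from the unlinked class only in tables where a multi-cell clonotype carries it. How far this sets the TRAJ28 shares, or the TRAJ distances below, was not tested. The Jensen–Shannon distance, which is 0 for equal gene shares and 1 for no gene in common, was 0.0791 to 0.153 for TRBV between unlinked singletons of a tumor and of its own thymus. It was 0.0627 to 0.169 to the thymus of other mice. Within a tumor, the TRBV distance to the own thymus was below those to all 6 other thymi in mouse-160A (0.153, beside 0.156 to 0.169) and not in the other tumors. For TRAJ it was below all 6 in mouse-160A and mouse-160B (0.0844 in mouse-160B, beside 0.131 to 0.159), for TRAV in mouse-160B and mouse-164B, and for TRBJ in mouse-164B. Between unlinked singletons and the multi-cell clonotypes of the same tumor it was 0.189 to 0.390, and among multi-cell clonotypes of different tumors 0.181 to 0.431. Small tables give larger distances, and the number of clonotypes differs between these classes.

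Chains that mark other T cell lineages were checked in the members. Every counted cell held a TRA and a TRB chain, and no other receptor locus was recorded in these columns. The invariant TRA of NKT cells, TRAV11 or TRAV11D joined to TRAJ18, was found in 0 of 371, 10 of 6512, 7 of 1098, 6 of 2907 and 17 of 10273 singletons. These are 0% to 0.638% of singletons, and the 0 of 371 allows a share of up to 0.989% (95% interval). It was found in 0 of 1051 multi-cell clonotypes. In the thymus tables of the same mice it made up 5.64% to 11.02% of singletons, most of them among the linked ones. TRAV1 with TRAJ33, the invariant pair of MAIT cells, was in 0 of the tumor singletons.

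Few unlinked singletons were found in the thymus of the same mouse. The pair was present there for 6 of 194 unlinked singletons in mouse-160A (3.09%; 1.14 to 6.61), 16 of 5878 in mouse-160B (0.272%; 0.156 to 0.442), 3 of 591 in mouse-160C (0.508%; 0.105 to 1.48), 16 of 2335 in mouse-164B (0.685%; 0.392 to 1.11) and 6 of 9053 in mouse-164C (0.0663%; 0.0243 to 0.144). In the thymus tables of other mice 0 to 6 unlinked singletons of a tumor were found, with a median of 0.00552%. The own value was above every such value in 4 of 5 tumors, while in mouse-164C the thymus of another mouse also held 6. In mouse-160C it rested on 3 clonotypes, beside up to 2 in the thymus of another mouse. Multi-cell clonotypes were present in the own thymus in 11.5%, 9.32%, 1.14%, 20.6% and 2.08% of cases. In the thymi of other mice the ranges were 0.962% to 4.81%, 0% to 0.311%, 0% to 3.98%, 0% to 1.56% and 0% to 1.04%. The own value of mouse-160C thus lay inside its range with other mice. A clone with more cells is easier to see in a second tissue, so the classes are not set against each other by a test. Among linked singletons 0 to 2 per mouse were found in the own thymus, 5 in all.

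The unlinked singletons with the most thymus cells are shown for mouse-160A and mouse-160B, because they had more thymus cells than those of the other mice. The corresponding pairs of mouse-160C and mouse-164B were held by 2 thymus cells each and that of mouse-164C by 1. The pair of mouse-160A, of TRAV12-2 and TRAJ58 with TRBV14 and TRBJ2-1, was held by 1 tumor cell and 10 thymus cells, all 10 with the same nucleotide sequences. The pair of mouse-160B, of TRAV6-7-DV9 and TRAJ22 with TRBV3 and TRBJ1-2, was held by 1 tumor cell and 6 thymus cells, again all with the same nucleotide sequences.
mouse-160A thymus-shared TRA: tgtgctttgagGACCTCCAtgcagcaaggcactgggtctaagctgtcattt
mouse-160A thymus-shared TRB: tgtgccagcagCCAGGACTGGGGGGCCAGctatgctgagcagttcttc
mouse-160B thymus-shared TRA: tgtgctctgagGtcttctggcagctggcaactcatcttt
mouse-160B thymus-shared TRB: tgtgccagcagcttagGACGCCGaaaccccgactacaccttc
Of the 47 unlinked singletons found in their own thymus, the nucleotide sequences could be read in both tissues for 6, 15, 3, 5 and 2, and were identical for 6, 15, 3, 5 and 1 of them. The annotation covers part of the thymus tables of mouse-160B and mouse-164B as well as part of the tumor table of mouse-164C. None of the 47 carried the invariant NKT chain. In any table of other mice, 0.155% to 1.55% of unlinked singletons and 2.80% to 17.3% of multi-cell clonotypes were found.

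**Figure D5:**
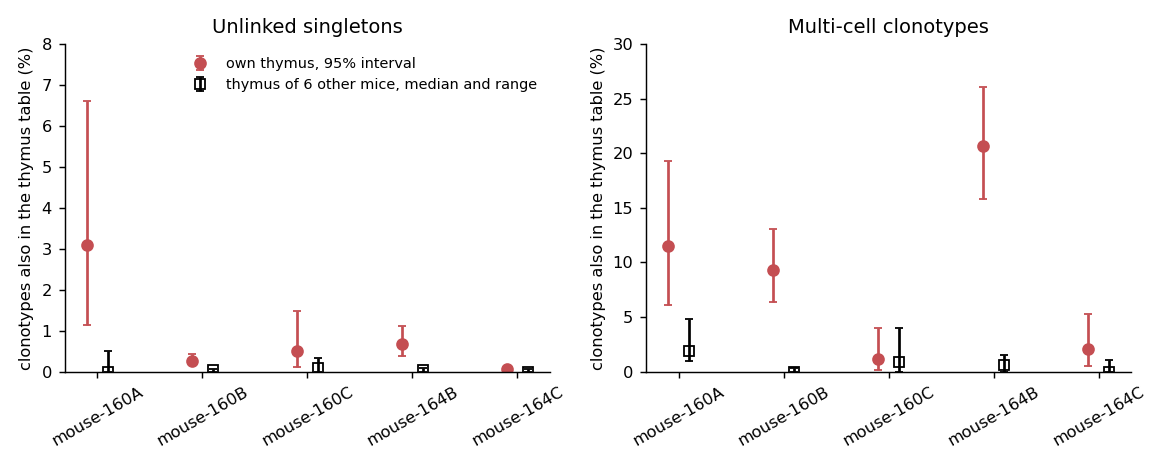
Percentage of unlinked singletons (left) and multi-cell clonotypes (right) of each tumor that were also in the thymus table of the same mouse, with the exact 95% interval, or in the thymus tables of the 6 other mice, as median and range. The 2 panels have different vertical scales. Unlinked singletons reach 3.09% in mouse-160A, and multi-cell clonotypes 20.6% in mouse-164B.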

How the data were processed

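TRA and TRB transcripts were amplified by the authors with the Parse Evercode TCR kit, and chain assembly and clonotype calling used the pipeline of Parse Biosciences (version: not given in the sources used here). As files, the deposited barcode tables hold whole-number counts of reads and transcripts of each chain per barcode, the deposited clonotype tables the count of cells of each pair and its fraction of counted cells, and the deposited annotation the nucleotide sequences. No barcode was shared by 2 tables (0 of 253531). All 22212 tumor rows equalled the tally of barcodes with both chains and no multiplet mark, so doublets were treated as the authors' pipeline marked them. Counted cells per tumor table ranged from 1812 to 13283.

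Here, singletons, links and sharing were counted in Python 3.11.15. Within-table differences were tested by an exact sign-flip permutation test, two-sided, with Benjamini-Hochberg adjustment over 13 tests. V and J genes with at least 10 clonotypes were tested in edgeR 4.0.16 (R 4.3.3) with the table as a block, adjusted over all 143 genes, and DESeq2 1.42.0 was an alternative. The edgeR test was checked on simulated counts, and the sign-flip test on small examples with known answers. The 5 tables are different mice of unstated genotype, and p-values measure the spread between them.

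The labels name the genome build GRCm39, whose GENCODE annotation gave positions for 11 of the 12 named genes. Genes were named if called, or if among the 3 with the highest median share of their kind. Linking chains were those carried by the most linked singletons, and single clonotypes those with the most transcripts or thymus cells. The members, lists and tests were chosen with earlier results of these data known. The comparisons of linked with unlinked singletons, and the links with other mice, were added after seeing the data.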

Additional observations from a re-analysis of the deposited data

Results flagged for a closer look

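In 3 of 32 results checked, 1 tumor table lay far from the other 4, by Dixon's test at the 95% level, which by chance singles out about 1 group in 20. All 3 belonged to mouse-160A, which had the fewest unlinked singletons (194). Its share of unlinked singletons also in the own thymus was 3.09%, which is 6 clonotypes, beside 0.0663% to 0.685% in the other tumors. Its TRBJ2-5 share was 18.6%, beside 11.2% to 12.3%. Its TRAJ23 share was 3.09%, again 6 clonotypes, beside 4.78% to 5.27%.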

How the results depend on the processing

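The number of singletons, 21161, became 14086 with nucleotide clonotypes (where annotated), 7932 with at least 2 transcripts in both chains, 32014 with multiplets counted and 13070 without barcodes that held a second chain. Without 1 sublibrary at a time it was 18348 to 18891. The one-transcript share and the transcripts per cell kept their direction under all alternatives that gave a value, at 12.6 to 17.1 percentage points and -6.60 to -4.20 transcripts, and the former gives no value with at least 2 transcripts in both chains. The TRA length difference turned to 0.00136 against multi-cell clonotypes of at least 3 cells. The TRB length difference ranged from -0.0163, without the table of mouse-160A, to 0.168 when 1 table or sublibrary was left out. The share of unlinked singletons with their TRB in uncounted barcodes, a median of 21.3%, was 12.7% with nucleotide clonotypes, 30.7% with at least 2 transcripts and 26.5% with linked singletons included. The median TRBV distance to the own thymus, 0.0836, was 0.119 with at least 2 transcripts. The median linked share of 19.7% ranged from 10.5% without second chains to 32.8% with multiplets, and was 32.9% without the table of mouse-160B or mouse-164C, 29.0% without that of mouse-164B and 15.8% without that of mouse-160A or mouse-160C.

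Of V and J genes, 1 was called higher (TRBV16) with at least 2 transcripts, 1 lower (TRAJ12) against multi-cell clonotypes of at least 3 cells, and 2 lower (TRAV6D-7 and TRAJ28) with no replicate block, that is without the pairing of both classes within a table. Leaving out 1 table or sublibrary gave 0 to 1 lower and 0 higher calls. Other alternatives gave 0 calls.

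For transcripts by link, without second chains the TRA difference was -0.415 for links by TRA only and -0.735 for links by both. The TRB difference for links by TRA only was 0.662 with at least 2 transcripts and 0.913 with multiplets, and -0.199 to 0.0506 without 1 table or sublibrary. The TRA difference for links by TRB only was 0.0350 with at least 2 transcripts and 0.477 with multiplets. The causes were not tested. No alternative could bring the sign-flip test below 0.0625. Depth limits clonotypes supported by 1 transcript of each chain.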
